A study of Mus musculus and Homo sapiens with 9 samples.

Results

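The mitochondrial ribosomal protein genes are the nuclear genes whose products, imported into mitochondria, form the large and the small subunit of the mitochondrial ribosome. They were taken by symbol, as protein-coding genes named Mrpl or Mrps with a number and at most a letter from a to c. The rule found 78 genes among 21938 protein-coding genes in mouse and 78 among 20033 in human. The symbols were the same 78 in both species, with 49 genes of the large subunit and 29 of the small subunit. A gene was counted as having a promoter peak in a list when the midpoint of a deposited peak lay within 1 kb of any of its annotated transcription start sites (TSSs).

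The study asked where R-loops and MCM8, a helicase-related protein of homologous recombination, lie along the genome, and used cleavage under targets and tagmentation (CUT&Tag), in which a transposase tethered by an antibody cuts and tags the chromatin around the bound target. The S9.6 antibody, raised against DNA-RNA hybrids, was used in 4 libraries of mouse embryonic fibroblasts (MEFs): Mcm8 wild type (WT), Mcm8 knockout (KO), control knockdown (shControl) and Ddx5 knockdown (shDdx5), with a wild-type MEF library made with no primary antibody beside them. The human embryonic kidney line HEK293 gave 4 libraries of wild-type genotype: mouse IgG, anti-FLAG after transfection of a FLAG-MCM8 plasmid, S9.6, and S9.6 after transfection of an RNH1 plasmid, which encodes RNase H1 in this study, an enzyme that degrades the RNA of DNA-RNA hybrids. The MEFs came from embryos and were immortalised with an SV40 lentivirus, the KO lacks exon 7 of Mcm8, the Ddx5 knockdown was delivered by adenovirus, and FLAG-MCM8 was an overexpressed protein. Each condition was 1 library, so no difference between conditions has a replicate check and no p-value is given. Intervals are 95% Wilson intervals over genes and cover the number of genes only.

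R-loops form when nascent RNA pairs back with its template and leaves the other DNA strand unpaired, and they are common at CpG-rich promoters of active genes. Mitochondrial ribosomal proteins are made in the cytosol from nuclear genes, and the ribosome they build translates the respiratory chain subunits that mitochondrial DNA encodes. Their promoters are mostly of the housekeeping type, and many are shared head to head with a neighbouring gene.

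The peak lists held 6481 peaks in WT, 9605 in KO, 12259 in shControl, 11768 in shDdx5 and 4314 without antibody, against 17178 with IgG, 13295 with anti-FLAG, 15147 with S9.6 and 12497 with RNH1 and S9.6. The MEF lists were called at a looser threshold than the HEK293 lists, so values of both cell types are given side by side and not compared. Only 28.1% to 60.5% of the peaks in the MEF S9.6 lists had a q-value (a p-value adjusted for the whole genome by the peak caller) of 0.05 or lower, against 100% in every HEK293 list. Relative depth, read from the lowest background that the caller used over the shortest peak, was 5729 to 7001 fragments per Mb in the MEF S9.6 libraries, 719.8 without antibody and 8314 to 11050 in HEK293. The KO library, with more peaks than WT, was the shallower of that pair.

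Promoter sequences of members named below are shown first. Each sequence is the 150 bases upstream of the main TSS, from the 5′ end towards the TSS, and capitals mark a match to CCGGAAG (the ETS family), to GCATGC (the core of the NRF1 site), to GCGCATGCG (NRF1) or to AAGATGGCG (YY1) on either strand. MRPL18 is shown because its promoter held a peak in every list, MRPS14 because it had the highest anti-FLAG fold among members, MRPS18B because it stood in the anti-FLAG, S9.6 and RNH1 lists, MRPL16 for the highest HEK293 S9.6 fold among members, Mrps36 with its human counterpart because both were in every S9.6 list of their species, Mrpl40 for being in all 4 MEF S9.6 lists, and Mrpl12 and Mrpl1 because they moved in opposite ways between the 2 MEF pairs.
MRPL18, hg38, chr6:159790317-159790466, strand +: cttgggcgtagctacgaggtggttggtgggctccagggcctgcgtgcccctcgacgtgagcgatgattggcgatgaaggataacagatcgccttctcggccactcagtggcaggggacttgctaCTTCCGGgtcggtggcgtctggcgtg
MRPS14, hg38, chr1:175023426-175023575, strand -: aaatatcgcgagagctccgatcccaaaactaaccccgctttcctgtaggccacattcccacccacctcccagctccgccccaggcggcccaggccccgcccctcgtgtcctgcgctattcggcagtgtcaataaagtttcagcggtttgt
MRPS18B, hg38, chr6:30617690-30617839, strand +: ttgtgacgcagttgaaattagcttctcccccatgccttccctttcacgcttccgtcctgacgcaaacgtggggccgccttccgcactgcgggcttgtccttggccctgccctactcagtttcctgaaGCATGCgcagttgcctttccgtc
MRPL16, hg38, chr11:59810779-59810928, strand -: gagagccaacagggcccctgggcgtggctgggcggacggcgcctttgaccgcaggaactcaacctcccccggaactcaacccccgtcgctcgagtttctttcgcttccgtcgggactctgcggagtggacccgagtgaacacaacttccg
MRPS36, hg38, chr5:69217610-69217759, strand +: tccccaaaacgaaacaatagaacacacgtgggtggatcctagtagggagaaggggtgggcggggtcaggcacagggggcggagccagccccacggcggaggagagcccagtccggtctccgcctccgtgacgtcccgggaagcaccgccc
Mrps36, mm10, chr13:100744660-100744809, strand -: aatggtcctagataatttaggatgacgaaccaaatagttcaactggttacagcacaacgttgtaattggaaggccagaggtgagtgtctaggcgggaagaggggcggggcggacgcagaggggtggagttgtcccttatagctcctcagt
Mrpl40, mm10, chr16:18876863-18877012, strand -: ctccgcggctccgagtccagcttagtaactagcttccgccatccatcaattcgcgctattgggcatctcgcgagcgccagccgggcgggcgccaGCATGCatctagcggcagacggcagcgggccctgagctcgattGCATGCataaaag
Mrpl12, mm10, chr11:120484463-120484612, strand +: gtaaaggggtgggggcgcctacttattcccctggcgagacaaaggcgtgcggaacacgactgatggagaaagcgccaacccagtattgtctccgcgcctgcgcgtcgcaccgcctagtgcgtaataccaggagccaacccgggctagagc
Mrpl1, mm10, chr5:96209343-96209492, strand +: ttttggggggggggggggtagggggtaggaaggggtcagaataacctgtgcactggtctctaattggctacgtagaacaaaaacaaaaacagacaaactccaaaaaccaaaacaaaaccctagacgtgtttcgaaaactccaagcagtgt

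Among these 9 stretches, MRPL18 holds an ETS match, MRPS18B a GCATGC core, and Mrpl40 that core at 2 places. The Mrpl1 stretch is not the sequence under its peaks. Those peaks (96209815 to 96210263 in KO, 96209884 to 96210155 in shControl) lay downstream of it, nearest to another TSS, at 96210115. Over the longer window of 250 bases before to 50 bases after the main TSS, CCGGAAG was present at 29 of 78 mouse members (37.2%, against 11.2% of all protein-coding genes) and at 32 of 78 human members (41.0%, against 14.1%). AAGATGGCG was present at 8 mouse members (10.3%, against 1.87%) and 13 human members (16.7%, against 2.84%). GCGCATGCG was present at 5 mouse members (6.41%, against 2.51%) and 4 human members (5.13%, against 2.70%), and its core GCATGC, which it contains, at 9 (against 8.20%) and 11 (14.1%, against 7.84%). A match is a description of the letters and not a bound site.

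Most promoters of the members were CpG-rich. With a CpG-rich promoter defined as at least 50% G and C and an observed to expected CpG ratio of at least 0.6, 60 of 78 mouse members (76.9%) and 74 of 78 human members (94.9%) qualified, against 9656 of 21938 mouse and 13114 of 20033 human protein-coding genes. The median observed to expected CpG ratio was 0.822 in the mouse members and 0.886 in the human members, against 0.558 and 0.775 in all genes. A protein-coding neighbour started within 1 kb on the opposite strand, pointing away, at 23 mouse members (29.5%, against 7.04% of all genes) and 26 human members (33.3%, against 9.47%). In both species Mrpl46 and Mrps11 are each other's neighbour, and a further set is paired with housekeeping genes, such as Mrpl18 with Tcp1, a chaperonin subunit, Mrpl40 with Hira, a histone chaperone, and Mrps12 with Sars2, a mitochondrial seryl-tRNA synthetase. Over the 9 lists, 59 of the 140 member and list pairs with a promoter peak (42.1%) rested on a peak that also lay within 1 kb of a TSS of another protein-coding gene, on either strand, against 26.7% of such pairs over all genes. In the MEF S9.6 lists the share ran from 47.1% to 52.9% of the members with a peak, against 24.8% to 26.3% over all genes, and in HEK293 S9.6 it was 30.6%, against 30.5%. The lists cannot assign such a peak to either gene.

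In the MEF S9.6 lists, 37 of 78 members (47.4%) had a promoter peak in at least 1 list, against 33.9% of all protein-coding genes. In WT MEFs 8 members had a promoter peak (10.3%, interval 5.29 to 19.0%), against 11.3% of all genes. In KO MEFs 17 members did (21.8%, interval 14.1 to 32.2%), against 16.0% of all genes. In shControl MEFs 17 members did (21.8%, interval 14.1 to 32.2%), against 14.7%, and in shDdx5 MEFs 24 did (30.8%, interval 21.6 to 41.7%), against 23.1%. Without primary antibody 1 member had a promoter peak (1.28%, interval 0.227 to 6.91%), against 1.24% of all genes. The share of all genes lay inside the members' interval in each of these 5 lists, in shControl near its lower end.

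**Figure D1:**
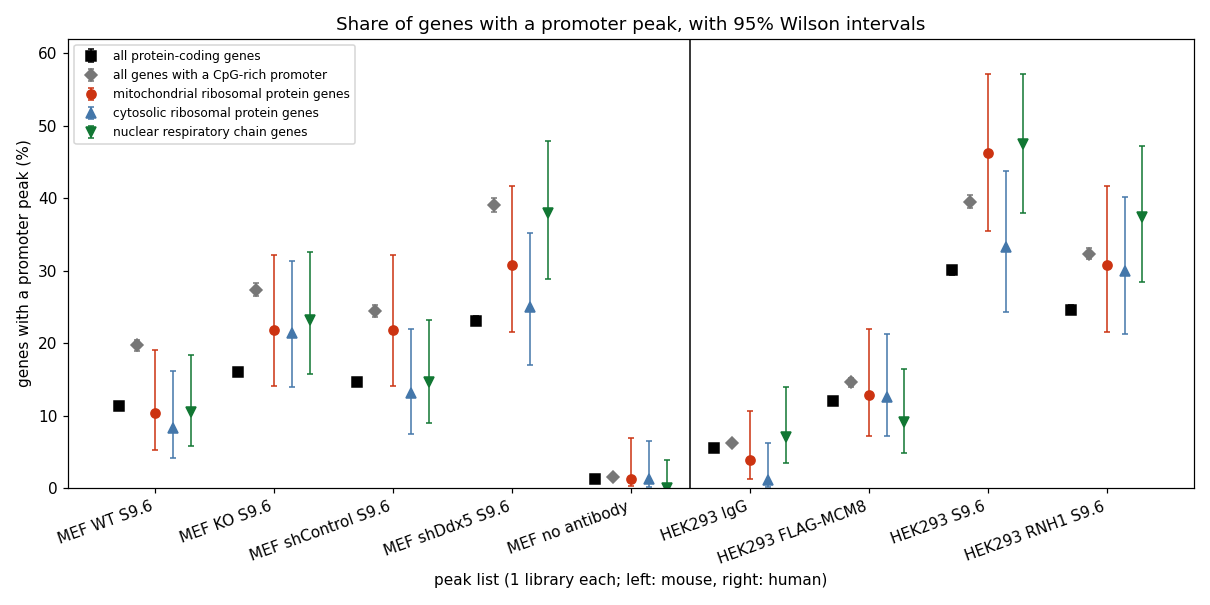
The vertical axis is the percentage of genes with a promoter peak, and the horizontal axis the 9 peak lists, 1 library each. Points are gene groups and bars their 95% Wilson intervals: in HEK293 S9.6 the mitochondrial ribosomal protein genes stand at 46.2%, above the 30.1% of all genes and beside the 39.5% of genes with a CpG-rich promoter, while in WT MEFs they stand at 10.3%, below the 19.7% of CpG-rich promoter genes.

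Beside genes with a CpG-rich promoter, a comparison chosen with the members' values known, the members did not stand higher in MEFs. Of the mouse members with a CpG-rich promoter, 6 of 60 had a peak in WT (10.0%, interval 4.66 to 20.1%, against 19.7% of all CpG-rich promoter genes). In KO it was 14 of 60 (23.3%, against 27.4%), in shControl 13 of 60 (21.7%, against 24.4%) and in shDdx5 21 of 60 (against 39.1%). The 84 cytosolic ribosomal protein genes, which build the ribosome of the cytosol, gave 8.33% in WT, 21.4% in KO, 13.1% in shControl and 21 of 84 in shDdx5. The 95 nuclear genes of the respiratory chain gave 10.5%, 23.2%, 14.7% and 37.9% in the same order. The intervals of the 3 gene groups overlapped in every MEF list.

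**Figure D2:**
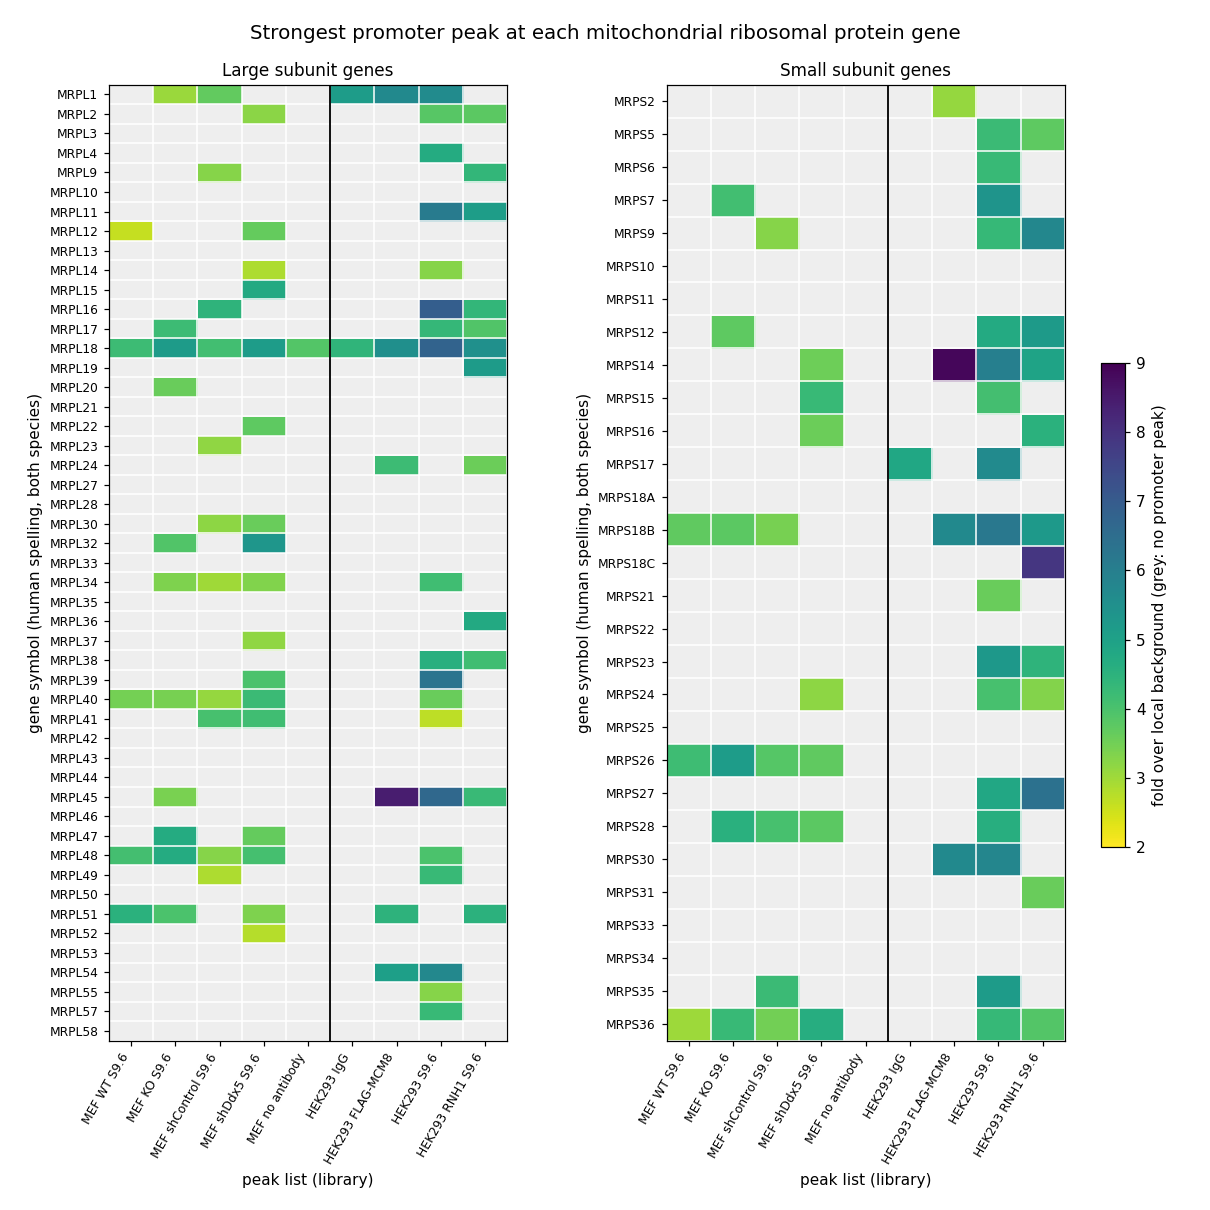
Rows are the 78 members by subunit and columns the 9 peak lists, mouse to the left of the vertical line and human to the right. Colour is the fold of the strongest promoter peak over local background, grey meaning no promoter peak: MRPL18 is coloured in every column, and 22 symbols are grey in every S9.6 and anti-FLAG column.

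The members found in all 4 MEF S9.6 lists were 5 (6.41%, against 4.19% of all genes): Mrpl18, Mrpl40 and Mrpl48 of the large subunit, Mrps26 of the small subunit, and Mrps36, named as a small subunit protein and now also known as a component of the 2-oxoglutarate dehydrogenase complex. Fold here is the caller's fragment pileup at the peak summit over the local background, with 1 added to each. Mrpl18 had a fold of 4.20 in WT and 5.15 in KO, 4.12 in shControl and 5.12 in shDdx5. It was also the single member with a peak in the no-antibody list, at chromosome 17, 12915785 to 12916289, with a fold of 3.87 that rested on a pileup of 4 fragments and had a −log10 q of 0.894. Its peaks in WT, KO and shDdx5 overlapped that no-antibody peak, and the shControl peak began just past its end, at 12916291. The summits lay in an untranslated exon of Mrpl18 in WT and KO and upstream of the gene in shControl and shDdx5, each time also inside Tcp1.

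Mrps26 had a fold of 4.17 in WT and 5.13 in KO, 3.85 in shControl and 3.70 in shDdx5. All 4 of its summits lay upstream of the gene, 60 to 341 bp from the TSS, with no TSS of another protein-coding gene within 1 kb of the peaks. Mrps36 had a fold of 3.03 in WT and 4.29 in KO, 3.50 in shControl and 4.63 in shDdx5. Its peaks crossed the first exon on chromosome 13, with summits in an untranslated exon in WT and shControl and in an intron in KO and shDdx5. Mrpl40 had a fold of 3.47 in WT and 3.43 in KO, 3.12 in shControl and 4.23 in shDdx5, at a promoter it shares with Hira. For all 3 the KO and shDdx5 peaks shared bases.

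Mrpl48 was in all 4 lists through separate start sites. At start sites on the side of Rab6a, whose TSS also lay within 1 kb of these peaks, peaks stood in WT (chromosome 7, 100607787 to 100608557, fold 3.90), in shControl (100607742 to 100608162, fold 3.26) and in shDdx5 (100607413 to 100607879, fold 4.06). At a start site inside the gene, near 100591426, peaks stood in WT (100590983 to 100591256, fold 4.10), in KO (100590738 to 100591197, fold 4.70) and in shDdx5 (100590752 to 100591404, fold 3.37). The KO list had no peak at the start sites beside Rab6a and the shControl list none at the inner one. The TSS used above for the sequence features of Mrpl48, at 100583102, had no peak within 1 kb in any MEF list.

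The comparison of KO with WT asks where S9.6 signal appears without Mcm8. In KO and not in WT, 10 members had a promoter peak (12.8%, against 9.38% of all genes): Mrpl1, Mrpl17, Mrpl20, Mrpl32, Mrpl34, Mrpl45 and Mrpl47 of the large subunit, and Mrps7, Mrps12 and Mrps28 of the small subunit. Their folds in KO ran from 3.04 at Mrpl1 to 4.70 at Mrpl47, and their pileups from 6 to 13 fragments. In WT and not in KO there was 1 member (1.28%, against 4.66%), Mrpl12, with a fold of 2.62 and a −log10 q of 0.410, among the weakest peaks of the WT list. Of the 8 members in WT, 7 were also in KO (87.5%, against 58.8% of all genes in WT), and in all 7 the peaks overlapped. Over those 7 the fold was higher in KO at 5, with a median ratio of 1.15, against 1.06 over the 1460 genes in both lists. Mrpl51 and Mrpl40 were the lower ones. Members in KO were 2.12 times as many as in WT, against 1.42 times over all genes. This rise was not particular to the members. Cytosolic ribosomal protein genes with a promoter peak went from 7 in WT to 18 in KO, and respiratory chain genes from 10 to 22.

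The comparison of shDdx5 with shControl asks the same of Ddx5, an RNA helicase. In shDdx5 and not in shControl, 15 members had a promoter peak (19.2%, against 13.3% of all genes): Mrpl2, Mrpl12, Mrpl14, Mrpl15, Mrpl22, Mrpl32, Mrpl37, Mrpl39, Mrpl47, Mrpl51, Mrpl52, Mrps14, Mrps15, Mrps16 and Mrps24. The highest fold among them was at Mrpl32 (5.32, on 14 fragments), followed by Mrpl15 (4.75) and Mrps15 (4.28). Mrpl52, at 2.78, had the lowest. In shControl and not in shDdx5 there were 8 members (10.3%, against 4.97%): Mrpl1, Mrpl9, Mrpl16, Mrpl23, Mrpl49, Mrps9, Mrps18b and Mrps35. Their highest fold was 4.44 at Mrpl16 and their lowest 2.85 at Mrpl49, and at Mrpl1, Mrpl9, Mrpl23 and Mrps9 the pileup was 7 or 8 fragments. Of the 17 members in shControl, 9 were also in shDdx5 (52.9%, against 66.3% of all genes), all with overlapping peaks, and the fold was higher in shDdx5 at 7 of the 9, with a median ratio of 1.13 against 1.12 over the 2144 genes in both lists. Members in shDdx5 were 1.41 times as many as in shControl, against 1.57 times over all genes.

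Only Mrpl32 and Mrpl47 were in both KO and shDdx5 and in neither control list, 2 members of 78 (2.56%, against 2.95% of all genes). Mrpl32 had a fold of 3.90 in KO (chromosome 13, 14613154 to 14613456) and 5.32 in shDdx5 (14613129 to 14613490). The summits of both peaks lay upstream of Mrpl32, inside its head-to-head neighbour Psma2, a proteasome subunit. Mrpl47 had a fold of 4.70 in KO (chromosome 3, 32736525 to 32737160) and 3.65 in shDdx5 (32736542 to 32737051), at a promoter it shares with Ndufb5, a subunit of respiratory complex I. When each peak was given to the nearest TSS alone, a setting added after the data were seen, both went to the neighbour and no member remained in this class.

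**Figure D3:**
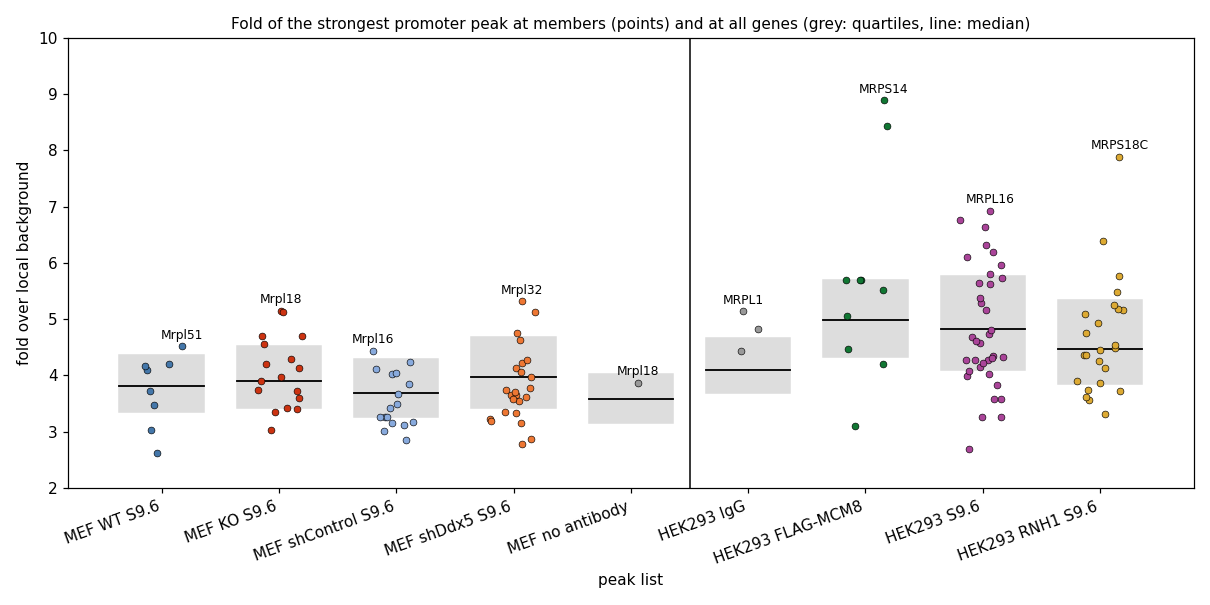
The vertical axis is the fold of the strongest promoter peak over local background. Points are members, grey boxes the quartiles and lines the medians of all protein-coding genes with a promoter peak in that list: the members of the 4 MEF S9.6 lists spread around the medians of all genes, MRPS14 and MRPL45 stand above 8 in the anti-FLAG list and MRPS18C at 7.88 in the RNH1 list.

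The median fold at the members was 3.91 in WT (all genes with a promoter peak, 3.81) and 3.97 in KO (3.90), 3.43 in shControl (3.69) and 3.68 in shDdx5 (3.97). A q-value of 0.05 or lower was reached by 5 of 8 members in WT, 13 of 17 in KO, 6 of 17 in shControl and 20 of 24 in shDdx5, that is 62.5%, 76.5%, 35.3% and 83.3%, against 55.9%, 61.1%, 52.1% and 80.5% of all genes with a promoter peak. In HEK293 the median fold was 5.60 with anti-FLAG (all genes, 4.98), 4.60 in S9.6 (4.83), 4.47 in RNH1 S9.6 (4.48) and 4.82 at the 3 members with IgG (4.11). Among members, the highest fold in each MEF S9.6 list was that of Mrpl51 in WT (4.52) and Mrpl18 in KO (5.15), Mrpl16 in shControl (4.44) and Mrpl32 in shDdx5 (5.32).

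In HEK293 cells the S9.6 list held 36 members (46.2%, interval 35.5 to 57.1%), against 30.1% of all protein-coding genes, which lay below that interval. Among CpG-rich promoter genes the share was 39.5%, and among CpG-rich members it was 33 of 74 (44.6%, interval 33.8 to 55.9%), so beside this background the share lay inside the interval. The small subunit gave 17 of 29 genes (58.6%, interval 40.7 to 74.5%) and the large subunit 19 of 49 (38.8%, interval 26.4 to 52.8%), with overlapping intervals. In RNH1 S9.6 the small subunit gave 12 of 29 (41.4%) and the large subunit 12 of 49 (24.5%). In the MEF lists the small and the large subunit gave 10.3% and 10.2% in WT, 20.7% and 22.4% in KO, the same 20.7% and 22.4% in shControl, and 24.1% and 34.7% in shDdx5. Among members, the highest folds in HEK293 S9.6 were 6.92 at MRPL16, 6.76 at MRPL18, 6.64 at MRPL45, 6.32 at MRPL39 and 6.20 at MRPS18B, and the lowest was 2.70 at MRPL41. The 87 cytosolic ribosomal protein genes stood at 33.3% and the 99 respiratory chain genes at 47.5% in this list.

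The IgG list held 3 members (3.85%, interval 1.32 to 10.7%), against 5.59% of all genes. These were MRPL1 with a fold of 5.14, MRPS17 with 4.82 and MRPL18 with 4.43, on pileups of 21 to 23 fragments. All 3 also had an overlapping S9.6 peak, with folds of 5.63, 5.65 and 6.76 in the same order, and the anti-FLAG peak of MRPL1 (fold 5.69) overlapped the IgG peak as well. MRPL18 was thus the symbol with a promoter peak in every one of the 9 lists, both controls included. What IgG and no-antibody signal contributes at this promoter was not tested.

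The anti-FLAG list held 10 members (12.8%, interval 7.12 to 22%), against 12% of all genes and 14.6% of CpG-rich promoter genes. MRPS14 had a fold of 8.89 (chromosome 1, 175023045 to 175023534, 24 fragments over a background of 1.81) and MRPL45 a fold of 8.44 (chromosome 17, 38296853 to 38297290, 23 fragments over 1.84), higher than 99.6% and 99.4% of the peaks in that list. The other 8 had folds of 3.11 at MRPS2 to 5.69 at MRPL1, MRPS18B and MRPS30. The MRPS14 summit lay in an intron 212 bp downstream of the TSS, and the MRPL45 summit 30 bp upstream of it. Promoter peaks in both the anti-FLAG and the S9.6 list were found at 7 members (8.97%, against 7.39% of all genes), and in all 7 they overlapped. Of the 10 anti-FLAG members, 70.0% were in the S9.6 list, against 61.5% of all genes. MRPL24, MRPL51 and MRPS2 were in the anti-FLAG list and not in the S9.6 list.

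The RNH1 library asks which S9.6 signal is lost when RNase H1 is overexpressed. It held 24 members (30.8%, interval 21.6 to 41.7%), against 24.6% of all genes and 32.3% of CpG-rich promoter genes. In S9.6 and not in RNH1 S9.6 there were 20 members (25.6%, against 12.6% of all genes): MRPL1, MRPL4, MRPL14, MRPL34, MRPL39, MRPL40, MRPL41, MRPL48, MRPL49, MRPL54, MRPL55, MRPL57, MRPS6, MRPS7, MRPS15, MRPS17, MRPS21, MRPS28, MRPS30 and MRPS35. Their S9.6 folds ran from 2.70 at MRPL41 to 6.32 at MRPL39. In RNH1 S9.6 and not in S9.6 there were 8 (10.3%, against 7.18%): MRPL9, MRPL19, MRPL24, MRPL36, MRPL51, MRPS16, MRPS18C and MRPS31. MRPS18C, at a promoter shared with HELQ, had the highest fold of the list among members (7.88, chromosome 4, 83455682 to 83456000). Of the 36 members in S9.6, 16 were also in RNH1 S9.6 (44.4%, against 58.1% of all genes). At these 16 the peaks overlapped, and the fold was lower with RNH1 at 13 (81.2%, against 64.1% of the 3496 genes in both lists), with a median ratio of 0.866 against 0.926. The largest difference among the 16 was at MRPL16 (6.92 against 4.37), and MRPS9, MRPS12 and MRPS27 had the higher fold with RNH1. MRPS27 had 2 promoter peaks in either list, at separate start sites.

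In FLAG-MCM8, S9.6 and RNH1 S9.6 alike there were 4 members (5.13%, against 5.81% of all genes). MRPS14 had folds of 8.89, 5.97 and 4.94 in that order, MRPL45 8.44, 6.64 and 4.25, MRPS18B 5.69, 6.20 and 5.25, and MRPL18 5.52, 6.76 and 5.48. MRPS14 and MRPL45 share no peak with another gene here, whereas the MRPS18B peaks lay in PPP1R10, a regulator of protein phosphatase 1, and MRPL18 peaks near TCP1. In FLAG-MCM8 and S9.6 without RNH1 S9.6 there were 3 members (3.85%, against 1.58% of all genes), MRPL1 (5.69 and 5.63), MRPS30 (5.69 and 5.80) and MRPL54 (5.06 and 5.74). Both MRPL1 peaks overlapped its IgG peak (fold 5.14), as did the S9.6 peak of MRPL18 with its own (fold 4.43).

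**Figure D4:**
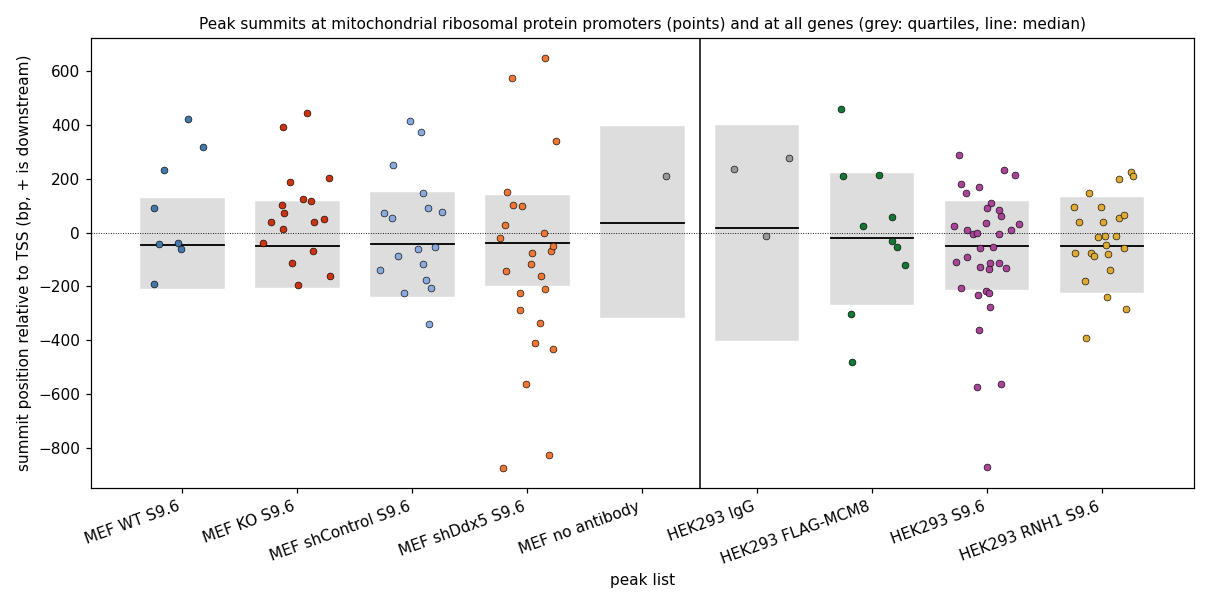
The vertical axis is the position of the peak summit relative to the TSS nearest to the peak's midpoint, in bp with downstream positive, and the horizontal axis the 9 lists. Points are members, grey boxes the quartiles and lines the medians of all genes with a promoter peak: most members' summits lie within 250 bp, as in KO (15 of 17) and RNH1 S9.6 (22 of 24), with a wider scatter in shDdx5 (14 of 24).

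The promoter rule already placed each peak's midpoint within 1 kb of a TSS, so a summit near a TSS is no finding by itself. Member summits are therefore set beside those of all genes, chosen by the same rule. Within 250 bp were 6 of 8 member summits in WT, 88.2% in KO, 82.4% in shControl, 58.3% in shDdx5, 70.0% with anti-FLAG, 83.3% in S9.6 and 91.7% in RNH1 S9.6, against 64.6%, 66.6%, 60.2%, 66.0%, 50.7%, 65.8% and 63.5% of all genes with a promoter peak. The annotation at the 140 summits was upstream of the gene at 48, an intron at 34, an untranslated exon at 29, a coding exon at 20 and a noncoding exon at 9. At 46 of them the summit lay inside another annotated protein-coding gene. Some of these are annotated over the member's own sequence, as URGCP-MRPS24 at MRPS24 and Gm28539 at Mrpl40, and are not separate neighbours. The annotation at summits was not counted over all genes. In shDdx5 the far summits belonged to Mrpl37 (873 bp upstream), Mrpl14 (828 bp upstream), Mrps24 (648 bp downstream) and Mrpl47 (573 bp downstream).

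Inside member genes and outside their promoter windows, 7 members had a peak in WT (8.97%, against 8.77% of all genes), 5 in KO (6.41%, against 12.1%), 3 in shControl (3.85%, against 15.5%), 2 in shDdx5 (2.56%, against 13%) and 0 without antibody (against 6.62%). In HEK293 it was 4 with IgG (5.13%, against 22.1%), 4 with anti-FLAG (5.13%, against 18.3%), 11 in S9.6 (14.1%, against 19.4%) and 5 in RNH1 S9.6 (6.41%, against 16.6%). Member genes are shorter than others, with a median length of 7.90 kb in mouse and 11.9 kb in human against 17.4 kb and 27.5 kb over all genes, and these shares were not adjusted for length. Mrps27 carried 3 of the 5 such peaks in shControl and stood in WT and shDdx5 too. MRPS22, a long gene, had body peaks in all 4 HEK293 lists, IgG included. Mrpl33 had them in WT (fold 3.07) and KO (4.65).

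The share of members with a peak was set beside their sequence features. In mouse, 53.3% of CpG-rich members and 27.8% of the other 18 members had a promoter peak in any MEF S9.6 list, against 54.9% and 17.5% over all genes. In human, either S9.6 list held 55.4% of the 74 CpG-rich members and 3 of the other 4, against 48.3% and 16.3% over all genes. Mouse members with a divergent neighbour had a peak in 52.2% of 23 cases and those without one in 45.5% of 55, against 67.2% and 31.4% over all genes. In human it was 13 of the 26 members with a divergent neighbour and 59.6% of the other 52, against 63.3% and 34.5% of all genes. Members holding CCGGAAG had a peak in 40.6% of 32 human cases and in 41.4% of 29 mouse cases, below the 67.4% and 51.0% of members without it, whereas over all genes the order was the opposite, 48.5% with and 35.4% without it in human and 50.4% and 31.9% in mouse. These features were chosen with results of these data known. They were read at the main TSS alone, whereas a peak counted at any TSS. A feature and a peak can thus lie at different start sites, as at Mrpl48 and Mrps35. The single Mrps35 peak was nearest to a TSS at 147061251, and its main TSS is at 147042764.

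Across species, 23 of the 37 members with a MEF S9.6 promoter peak had 1 in HEK293 S9.6 too (62.2%, and 63.9% of the 36 human members), as did 31.7% of the 41 members without a MEF peak. Over the 15744 protein-coding symbols shared by both species the same shares were 49.8% with and 20.8% without a MEF S9.6 peak, and 33.2% of those symbols were in HEK293 S9.6, against 46.2% of the members. Of the 5 in all 4 MEF S9.6 lists, MRPL18, MRPL40, MRPL48 and MRPS36 were in HEK293 S9.6, and MRPL18 and MRPS36 also in RNH1 S9.6. MRPS36 had folds of 4.31 and 3.86 there. At 22 symbols there was no S9.6 or anti-FLAG promoter peak in either species: MRPL3, MRPL10, MRPL13, MRPL21, MRPL27, MRPL28, MRPL33, MRPL35, MRPL42, MRPL43, MRPL44, MRPL46, MRPL50, MRPL53, MRPL58, MRPS10, MRPS11, MRPS18A, MRPS22, MRPS25, MRPS33 and MRPS34. The same count was not made over all shared symbols, so these 22 are not set apart from genes in general. In the MEF S9.6 lists alone, 41 of 78 members had no promoter peak, against 9015 of the 15744 shared symbols.

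Members followed in both species for their known roles did not share a pattern. MRPS36, followed as well and described above, had a promoter peak in every S9.6 list of both species. MRPL12, a stalk protein of the large subunit that also binds the mitochondrial RNA polymerase, had peaks in WT (2.62) and shDdx5 (3.65, on 18 fragments), with both summits in a coding exon, and none in human. MRPS12, a protein of the decoding centre, had a peak in KO (3.73) in mouse and in S9.6 (4.73) and RNH1 S9.6 (5.19) in human, all at the promoter shared with the seryl-tRNA synthetase gene. MRPL11, a protein at the base of the stalk, had none in mouse and folds of 6.10 in S9.6 and 5.10 in RNH1 S9.6 in human. MRPS18B had peaks in WT (3.72), KO (3.75) and shControl (3.43) and in 3 human lists. MRPL23 had a peak in shControl (3.16, on 7 fragments) and no promoter peak in human, where it had body peaks in S9.6 and RNH1 S9.6.

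The other genes of mitochondrial translation were counted from lists chosen with earlier results known. The symbol rule leaves out any ribosomal subunit gene without an Mrpl or Mrps name. The list of factors holds such other names as Dap3, Ptcd3 and Aurkaip1, so it is not limited to genes outside the ribosome. Of the translation and expression factors, 8 of 39 mouse genes had a promoter peak in WT (20.5%) and 12 in KO (30.8%). In shControl it was 9 (23.1%) and in shDdx5 17 (43.6%), with 20 of 40 human genes in S9.6 and 17 in RNH1 S9.6 (42.5%). Over all protein-coding genes the shares in the same order were 11.3%, 16.0%, 14.7%, 23.1%, 30.1% and 24.6%. Among CpG-rich promoter genes they were 19.7%, 27.4%, 24.4%, 39.1%, 39.5% and 32.3%. The synthetases and regulators below have the same backgrounds. Mtrf1l, a release factor, had folds of 6.49, 5.37, 6.02 and 6.26 in the 4 MEF S9.6 lists in the order above, and Tfb1m, which methylates the small ribosomal RNA, had 4.36, 5.40, 5.69 and 5.98. In human, TFB1M had 7.11 with anti-FLAG, 11.2 in S9.6 and 6.81 in RNH1 S9.6. Of the 17 mitochondrial aminoacyl-tRNA synthetases, 4 had a peak in WT and 3 in KO, 2 in shControl and 7 in shDdx5, and 9 had a peak in HEK293 S9.6 (52.9%) and 12 in RNH1 S9.6 (70.6%), a higher count with RNH1 than without. The IgG list held 1 of the 40 factors (2.50%) and 2 of the 17 synthetases (11.8%), against 5.59% of all genes. Those 2, NARS2 and TARS2, were also in RNH1 S9.6. WARS2 had 8.62 in S9.6 and 11.5 in RNH1 S9.6. Of 6 regulators of mitochondrial genes, 0 had a peak in WT, 2 in KO (Yy1 and Esrra), 2 in shControl (the same pair) and 5 in shDdx5 (Nrf1, Gabpa, Gabpb1, Yy1 and Esrra, with folds of 3.24 to 5.01). With so few genes, the interval in shDdx5 ran from 43.6 to 97.0%, against 23.1% of all genes.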

How the data were processed

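The authors deposited 1 narrowPeak list per library, with no read counts, so depth is known only relatively. Per the labels, reads were trimmed with Trimmomatic, aligned with Bowtie2 and peaks called with MACS2 2.1.2, and the study's methods name a later MACS2 release. The deposited columns used here hold the fold of the summit over local background (a ratio), its −log10 p and −log10 q. The lowest −log10 p was 3.00 in MEF and 5.00 in HEK293 lists. The authors' integer score column was not used. The deposited summit offset gave positions.

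TSSs came from GENCODE M21 (mm10) and v44 (hg38), and sequence from the reference genomes of those builds. A promoter peak has its midpoint within 1000 bp of a TSS, and the peak with the highest −log10 p stands for a gene. Overlap of promoter peaks between lists was checked at the members only, with no share over all genes beside it. Pileup and background were solved from fold and −log10 p, which recovered 3000 of 3000 simulated peaks. Members and lists were chosen with earlier results of these data known. Named genes were the members in all 4 MEF S9.6 lists, in KO and shDdx5 alone, in FLAG-MCM8 with S9.6 (with and without RNH1 S9.6), in a control list, with the highest fold in a list, shared by species, and 6 fixed symbols, beside which others were named after their values were seen. Python 3.11.15 was used with numpy 2.4.6 and pandas 2.3.3. With 1 library per condition no test was run.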

Additional observations from a re-analysis of the deposited data

Results flagged for a closer look

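Mrpl1 was the 1 member that had a promoter peak in KO and not in WT, and in shControl and not in shDdx5, so that its calls went in opposite directions in the MEF pairs (173 of all mouse protein-coding genes did the same). Its folds were 3.04 in KO, on 6 fragments, and 3.68 in shControl, on 8 fragments, near a start site inside an intron. Mrpl12 was the 1 member with the opposite pattern, in WT and not in KO, and in shDdx5 and not in shControl (313 of all genes did the same). Its folds were 2.62 in WT and 3.65 in shDdx5. Neither difference between the pairs was tested.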

How the results depend on the processing

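Each of the 18 counts of members was recomputed under other settings, and 114 of 142 values stayed within 1.5 times. This compares members' counts alone, so a count that stayed can still change beside the share of all genes. In HEK293 S9.6 the counts that stayed ran from 25 members (against 23.3%) with a q of 1e-05 or lower to 37 (against 35.1%) with a window of 3000 bp. The moved counts follow, each with the share of all protein-coding genes under that setting. With a fold of at least 4 they were 4 in WT (4.48%), 8 in KO (7.02%), 5 in shControl (5.58%), 8 in shDdx5 (11.3%) and 0 without antibody (0.315%), 5 in KO and not WT (4.52%), 6 in shDdx5 and not shControl (7.84%), 3 in shControl and not shDdx5 (2.11%), 1 in both KO and shDdx5 alone (1.44%), and 1 in all 4 lists (1.45%). With a q of 0.05 or lower they were 5 in WT (6.32%), 6 in shControl (7.69%), 0 without antibody (0.128%), 0 in WT and not KO (2.48%), 2 in shControl and not shDdx5 (2.04%) and 2 in all 4 lists (2.43%), and with a q of 1e-05 or lower 13 in HEK293 S9.6 and not RNH1 S9.6 (10.6%). With the 4314 strongest peaks of each MEF list they were 8 in shControl (9.06%), 13 in shDdx5 (14.1%), 8 in shDdx5 and not shControl (8.38%), 3 in shControl and not shDdx5 (3.32%) and 2 in all 4 lists (2.85%). With a window of 3000 bp they were 3 in WT and not KO (6.06%) and 5 with IgG (11.2%), and with 1 TSS per gene 2 in WT and not KO (3.56%). With peaks given to the nearest TSS alone, a setting added after the data were seen, they were 11 in KO (13.9%), 6 in KO and not WT (8.55%), and 0 in both KO and shDdx5 alone (2.56%). No paired analysis was possible because each condition is 1 library. Low pileups limit the MEF calls, and counting error between libraries cannot be separated from the conditions.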
